A study of Mus musculus with 6 samples.

Results

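Expression of 9 genes was followed in CX3CR1-EGFP+ osteoclast precursors: the granulocyte colony-stimulating factor (G-CSF) receptor gene *Csf3r*, the calprotectin genes *S100a8* and *S100a9*, the surface receptor genes *Trem1* and *Trem3*, and *Asprv1*, *Retnlg*, *G0s2* and *Stfa2l1*. They were chosen by gene symbol as genes known from mature neutrophils, and all 9 were found among the 24346 gene symbols. RNA-Seq was performed on EGFP+ cells sorted from calvarial bone marrow of CX3CR1-EGFP knock-in mice, in which the fluorescent reporter is expressed from the *Cx3cr1* locus and labels the monocyte lineage. In all 6 mice, 20 mg/kg lipopolysaccharide (LPS) had been injected into the periosteum of the calvaria, a model of inflammatory bone destruction. For 5 days, 3 mice were given ABT-317 (60 mg/kg, 2 doses per day), an inhibitor selective for JAK1, and 3 mice were given vehicle, to learn how JAK inhibition acts on osteoclast precursors. The age and sex of these mice are not given in the sources used here.

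Neutrophils mature in the bone marrow under G-CSF, whose receptor signals through JAK kinases and STAT3. Calprotectin is the complex of S100A8 and S100A9, calcium-binding proteins that are abundant in the cytosol of neutrophils and monocytes and act as ligands of the LPS receptor TLR4 when released. Several of the 9 genes, among them *S100a8*, *S100a9*, *Trem1* and *Trem3*, are also expressed outside neutrophils.

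The values are FPKM, that is, sequenced fragments per kilobase of transcript and per total of mapped fragments, so that levels of different genes can be compared. Summed FPKM were 775790.0, 740921 and 752098 with vehicle (mice 1 to 3) and 758529, 688372 and 739909 with JAK inhibitor (mice 1 to 3). A sum of FPKM is no read count, the absolute depth is unknown, and low values placed the relative depths within about 1.17-fold of each other over all 15 pairs of libraries. All 9 genes reached an FPKM of 1 in at least 1 mouse of each group and were among the 11301 genes tested.

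The label of mature neutrophil genes was checked against other genes of these cells. *Cxcr1*, a chemokine receptor of mature neutrophils, was listed at 0 in every mouse, its relative *Cxcr2* had 6.38, 5.98 and 11.5 FPKM with vehicle and 4.58, 4.55 and 2.96 FPKM with JAK inhibitor, and *Ly6g* was not analysed here. By contrast, the mean FPKM over the 6 mice was 4312 for *Mpo*, an enzyme of the primary granules that granulocyte progenitors make, and 4146 for *Ly6c2*, a marker of inflammatory monocytes. Other genes of the same list of genes known from mature neutrophils were abundant, with a mean FPKM of 1033 for *Wfdc21*, 833 for *Slpi*, 266 for *Ifitm6*, 265 for *Fpr1* and 182 for *Mmp8*. The list thus held genes at high levels beside receptors that were low or listed at 0, and the 9 genes are called here by their names and not by a cell type. In sorted cells measured in bulk, fewer cells of a type and less RNA per cell cannot be told apart.

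Levels of the 9 genes covered a wide range. By mean FPKM over the 6 mice the order was *S100a8* (9574), *S100a9* (2566), *Trem3* (185), *Csf3r* (52.6), *Retnlg* (37.1), *Trem1* (21.8), *G0s2* (11.7), *Stfa2l1* (5.22) and *Asprv1* (1.99). *S100a8* ranked 3 and *S100a9* ranked 23 among all gene symbols. The ranges over mice of *S100a8*, *S100a9*, *Trem3* and *Csf3r* did not overlap with one another, whereas from *Csf3r* down to *Asprv1* each range overlapped with the next. Within a gene, the highest mouse exceeded the lowest 1.29-fold for *Csf3r*, 1.53-fold for *Trem3*, 2.01-fold for *Trem1*, 2.996-fold for *S100a9* and 3.11-fold for *S100a8*. This ratio was 6.20 for *G0s2*, 29.5 for *Retnlg*, 47.5 for *Stfa2l1* and 252 for *Asprv1*, the gene with the lowest level.

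**Figure D1:**
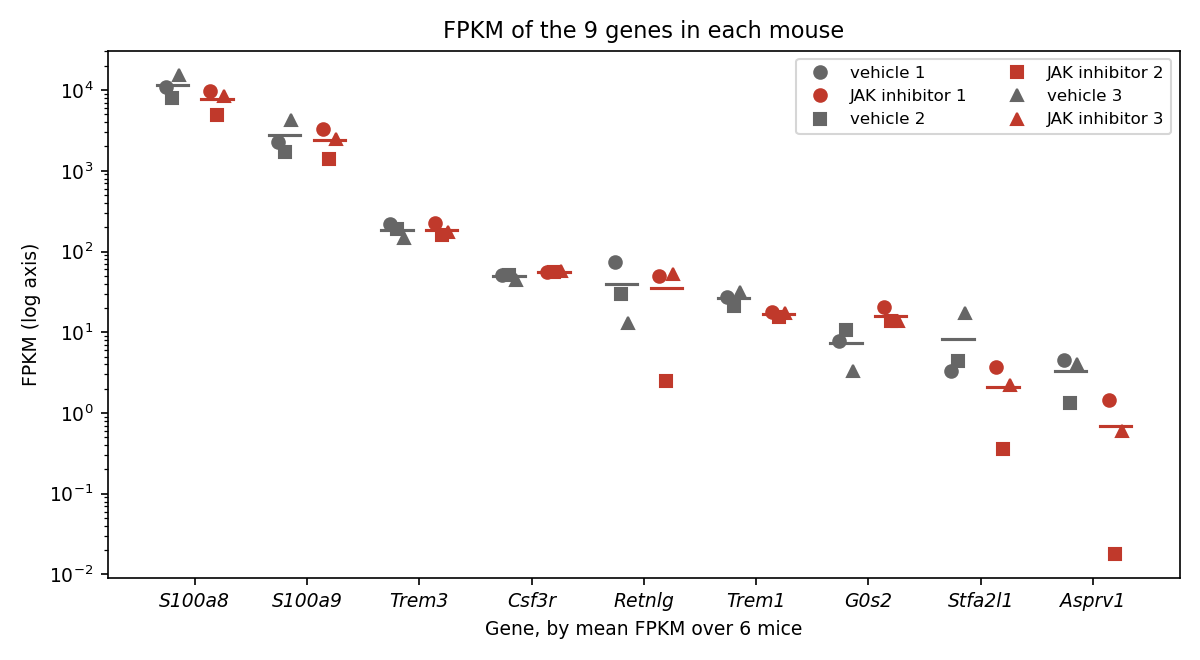
FPKM of the 9 genes (log axis) in each of 3 vehicle-treated (gray) and 3 JAK inhibitor-treated (red) mice, with symbols for mouse 1 (circle), 2 (square) and 3 (triangle) and horizontal bars for group means. JAK inhibitor-treated mouse 2 is the lowest point for 6 genes, and vehicle-treated mouse 3 is the lowest for 3 genes and the highest for 4.

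A pair of libraries stood apart from the others for these genes. JAK inhibitor-treated mouse 2 had the lowest value of all 6 mice for *S100a8*, *S100a9*, *Asprv1*, *Retnlg*, *Stfa2l1* and *Trem1*. Vehicle-treated mouse 3 had the highest value for *S100a8*, *S100a9*, *Stfa2l1* and *Trem1* and the lowest for *Csf3r*, *G0s2* and *Trem3*. For the 9 genes and for the counts of several related lists, differences between the groups are therefore also given without these mice, whereas FPKM, other log2 fold changes and p are over all 6 mice unless noted. Both mice, called outlying below, were picked by the values of the 9 genes. Leaving them out moves these values by construction, so such settings describe the dependence on these mice and test nothing.

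None of the 9 genes passed the threshold of the comparison across all tested genes (0 of 9 at an adjusted p under 0.05 in limma on log2(FPKM + 1), against 15 of 11301 genes or 0.133%). *Trem1*, *Asprv1* and *Stfa2l1* were lower and *G0s2* was higher with JAK inhibitor at an unadjusted p under 0.05, which makes 4 of 9, against 16.0% of all tested genes. Without both outlying mice, *Trem1* was lower and *G0s2* and *S100a9* were higher at such a p, 3 of 9 against 12.3% of all tested genes. As the values of these same genes picked the mice, this count is a description only. *Stfa2l1* had no such p when either outlying mouse or both were left out, and *Asprv1* had none without both. All 3 mice of one group lay above all 3 of the other for 3 of the 9 genes, with *Trem1* lower and *Csf3r* and *G0s2* higher with JAK inhibitor, against 22.0% of all tested genes. The median log2 fold change of the 9 genes, JAK inhibitor against vehicle, was -0.56, with 6 below and 3 above 0, whereas the median of all tested genes was -0.00. For the 9 genes this median was 0.12, with the sign turned, without JAK inhibitor-treated mouse 2, -0.26 without vehicle-treated mouse 1, -0.32 without vehicle-treated mouse 3 and -0.027 without both outlying mice. Among all tested genes with an unadjusted p under 0.05, 58.9% were lower with JAK inhibitor, against 43.5% when each library was rescaled to a common sum.

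**Figure D2:**
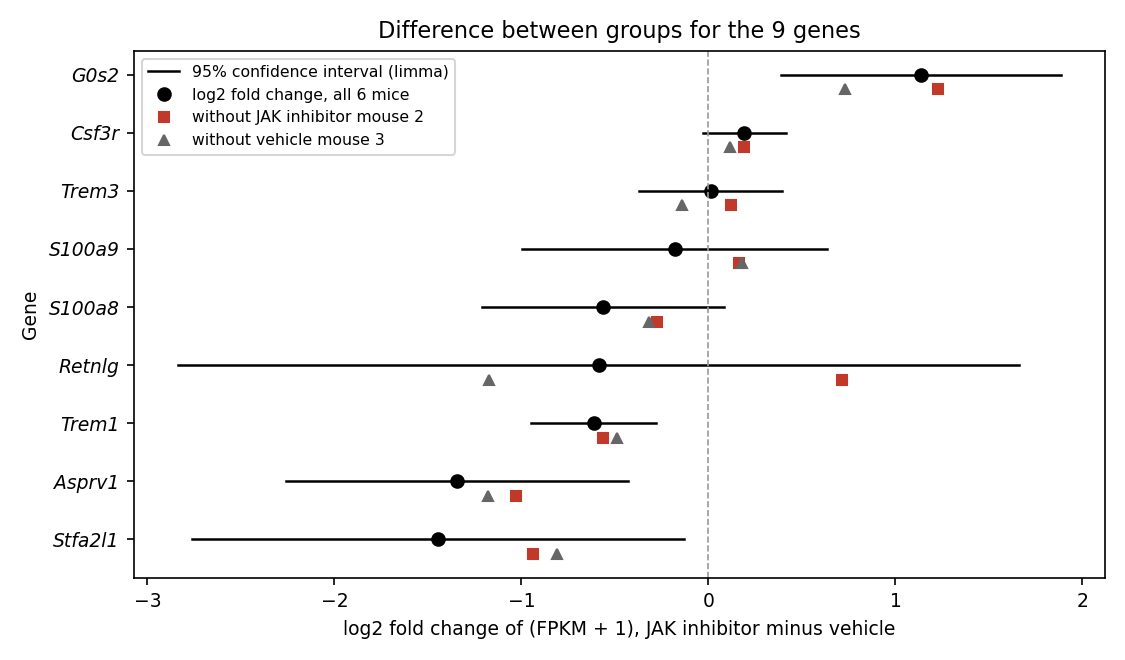
Log2 fold change of FPKM + 1, JAK inhibitor minus vehicle, for the 9 genes (black points) with 95% confidence intervals from limma (lines), and the same value without JAK inhibitor-treated mouse 2 (red squares) or without vehicle-treated mouse 3 (gray triangles). *G0s2* lies at 1.14 and *Stfa2l1* at -1.45, and *S100a9*, *Retnlg* and *Trem3* have points on both sides of 0.

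*Csf3r* (chromosome 4, 126024550 to 126044440 on the plus strand of GRCm38 in GENCODE M21) encodes the receptor of G-CSF. Its FPKM was 51.3, 51.9 and 44.1 in vehicle-treated mice 1 to 3 and 55.0, 56.2 and 56.9 in JAK inhibitor-treated mice 1 to 3. The JAK inhibitor-treated mice lay close together above all vehicle-treated mice, of which mouse 3 was the lowest. JAK inhibitor against vehicle, the log2 fold change was 0.19 (standard error 0.098, limma adjusted p = 0.384), and the exact 2-sided p over permutations was 0.1, which is the minimum for groups of 3 mice. The 95% confidence interval ran from -0.03 to 0.41, and the value was 0.12 without vehicle-treated mouse 3, 0.19 without JAK inhibitor-treated mouse 2 and 0.11 without both. Of its stretches of 75 bases, the read length, 2.95% also occur in other genes.

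Of 22 genes of G-CSF receptor signaling, 21 were tested, and the gene of the ligand itself, *Csf3*, was not among them, with an FPKM of at most 0.021. None of the 21 passed the adjusted threshold in limma. At an unadjusted p under 0.05, *Stat3*, *Cebpb* and the feedback inhibitor *Socs3* were lower and *Cebpe*, a transcription factor of granule formation, was higher with JAK inhibitor, which makes 4 of 21 against 16.0% of all tested genes, and the median log2 fold change was -0.00. Without both outlying mice only *Stat3* (-0.33) and *Cebpe* (0.56) kept such a p, 2 of 21 against 12.3% of all tested genes. *Stat3* had 69.7, 65.7 and 70.9 FPKM with vehicle and 48.2, 54.2 and 59.6 FPKM with JAK inhibitor. *Cebpe* had 15.8, 14.2 and 15.2 FPKM with vehicle and 29.0, 18.9 and 17.4 FPKM with JAK inhibitor. The groups thus did not overlap for either gene, in opposite directions, as was the case in one direction or the other for 22.0% of all tested genes. Among 8 receptor chains for colony-stimulating factors and IL-6, *Csf2rb* (log2 fold change -0.63) and *Csf2rb2* (-0.63) were lower and *Il3ra* (0.81) and *Il6st* (0.62) were higher at an unadjusted p under 0.05, which makes 4 of 8 against 16.0% of all tested genes, and none passed the adjusted threshold (limma adjusted p from 0.117 to 0.288 for the 4). *Csf2rb2*, whose groups overlapped, had no such p without JAK inhibitor-treated mouse 2 (-0.54), vehicle-treated mouse 3 (-0.36) or both (-0.27). Of the other chains, *Csf1r*, the most abundant of all 8, had -0.03 and *Csf3r* had the 0.19 above.

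The calprotectin genes are neighbors on chromosome 3, *S100a8* at 90668978 to 90670035 on the plus strand and *S100a9* at 90692632 to 90695721 on the minus strand, with starts 26743 bases apart. The sequences upstream of both are printed because this pair is compared within each mouse, and those of *Csf3r*, *Trem1* and *G0s2* because their groups did not overlap. They are RefSeq sequences of GRCm38.p6, written 5′ to 3′ on the strand of the gene, from up to 250 bases before the RefSeq start with bases of annotated exons removed. Capitals mark matches, on either strand, to TTCNNNGAA (STAT factors), TTGCNNAA (C/EBP factors) or GAGGAA (PU.1). The stretches are chr3:90668821-90668977 (plus strand) for *S100a8*, chr3:90695722-90695971 (minus strand) for *S100a9*, chr4:126024409-126024549 (plus strand) for *Csf3r*, chr17:48232489-48232738 (plus strand) for *Trem1* and chr1:193273218-193273438 (minus strand) for *G0s2*.
S100a8: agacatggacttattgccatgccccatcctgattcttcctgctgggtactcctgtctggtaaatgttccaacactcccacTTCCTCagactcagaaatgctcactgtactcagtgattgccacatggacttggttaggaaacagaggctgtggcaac
S100a9: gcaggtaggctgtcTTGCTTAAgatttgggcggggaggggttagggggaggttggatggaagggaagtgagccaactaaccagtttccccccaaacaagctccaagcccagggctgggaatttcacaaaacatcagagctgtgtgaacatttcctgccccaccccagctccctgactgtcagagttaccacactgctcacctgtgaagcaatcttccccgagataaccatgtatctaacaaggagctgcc
Csf3r: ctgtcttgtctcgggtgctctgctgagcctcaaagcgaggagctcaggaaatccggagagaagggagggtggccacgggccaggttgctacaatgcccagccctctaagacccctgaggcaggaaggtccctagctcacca
Trem1: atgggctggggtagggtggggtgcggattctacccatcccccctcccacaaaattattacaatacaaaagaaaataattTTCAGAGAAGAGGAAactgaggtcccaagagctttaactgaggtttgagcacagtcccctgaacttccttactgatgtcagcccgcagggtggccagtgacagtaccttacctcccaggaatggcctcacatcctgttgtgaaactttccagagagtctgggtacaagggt
G0s2: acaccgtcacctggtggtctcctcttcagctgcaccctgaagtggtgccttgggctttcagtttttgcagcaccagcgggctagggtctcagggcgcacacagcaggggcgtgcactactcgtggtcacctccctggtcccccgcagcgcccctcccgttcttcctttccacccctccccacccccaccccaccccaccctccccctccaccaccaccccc

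Upstream sequences were given for 8 of the 9 genes, all but *Trem3*. In the 250 bases before the start, the STAT letters were found for 1 of the 8 genes (*Trem1*, at position -171 from the start), against 7.02% of 32851 promoters of the same length. The C/EBP letters were found for 2 genes (*S100a9* at -236 and *Retnlg* at -246), against 9.56% of promoters, and the PU.1 letters for 4 genes (*S100a8*, *Csf3r*, *Stfa2l1* and *Trem1*), against 23.3%. In *Trem1* the PU.1 match at -162 follows the STAT match directly, without shared bases. *S100a8* has 1 PU.1 match in the printed stretch, at -170, and another at -36, which is not in it, and the match of *Csf3r*, at -86, is likewise outside its printed stretch. No match was found upstream of *G0s2* and *Asprv1*. A match describes the letters of the sequence, and binding was not measured.

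The FPKM of *S100a8* was 10790.4, 7965.5 and 15469 in vehicle-treated mice 1 to 3 and 9820.25, 4970.4 and 8429.8 in JAK inhibitor-treated mice 1 to 3. Vehicle-treated mouse 3 was the highest and JAK inhibitor-treated mouse 2 the lowest, and the groups overlapped, since vehicle-treated mouse 2 lay below JAK inhibitor-treated mice 1 and 3. This gave a log2 fold change of -0.56 (standard error 0.29, limma adjusted p = 0.376, exact permutation p = 0.3). It was -0.27 without JAK inhibitor-treated mouse 2, -0.32 without vehicle-treated mouse 3 and -0.027 without both.

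*S100a9* had 2293, 1730.1 and 4198 FPKM in vehicle-treated mice 1 to 3 and 3306, 1401 and 2468 FPKM in JAK inhibitor-treated mice 1 to 3. The same mice were highest and lowest as for *S100a8*, but here JAK inhibitor-treated mice 1 and 3 lay above vehicle-treated mice 1 and 2. A log2 fold change of -0.18 was estimated (standard error 0.36, limma adjusted p = 0.845, exact permutation p = 0.8). Its direction turned when JAK inhibitor-treated mouse 2 (0.16) or vehicle-treated mouse 3 (0.18) was left out, and it was 0.52 without both (limma adjusted p = 0.247, against 0.247 to 0.993 over all alternatives). These were the lowest and the highest mouse for *S100a9*, so leaving them out raises the value by construction.

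Because both subunit genes are read from the same library, their ratio does not depend on the scaling of that library. *S100a8* exceeded *S100a9* by 4.71-fold, 4.60-fold and 3.69-fold in vehicle-treated mice 1 to 3 and by 2.97-fold, 3.55-fold and 3.42-fold in JAK inhibitor-treated mice 1 to 3. The 3 JAK inhibitor-treated mice thus had the lowest excess of *S100a8*, and the groups did not overlap, although vehicle-treated mouse 3 lay near JAK inhibitor-treated mouse 2. On the log2 scale, *S100a9* over *S100a8* was -1.72 ± 0.135 (SD, n = 3) with JAK inhibitor and -2.11 ± 0.195 (SD, n = 3) with vehicle (difference 0.38, or 1.30-fold, exact 2-sided permutation p = 0.1, the smallest possible here). The difference was 0.55 without both outlying mice and between 0.31 and 0.50 when 1 mouse was left out. Together the pair made up 1.69%, 1.31% and 2.61% of all FPKM in vehicle-treated mice 1 to 3 and 1.73%, 0.926% and 1.47% in JAK inhibitor-treated mice 1 to 3, with groups that overlapped.

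**Figure D3:**
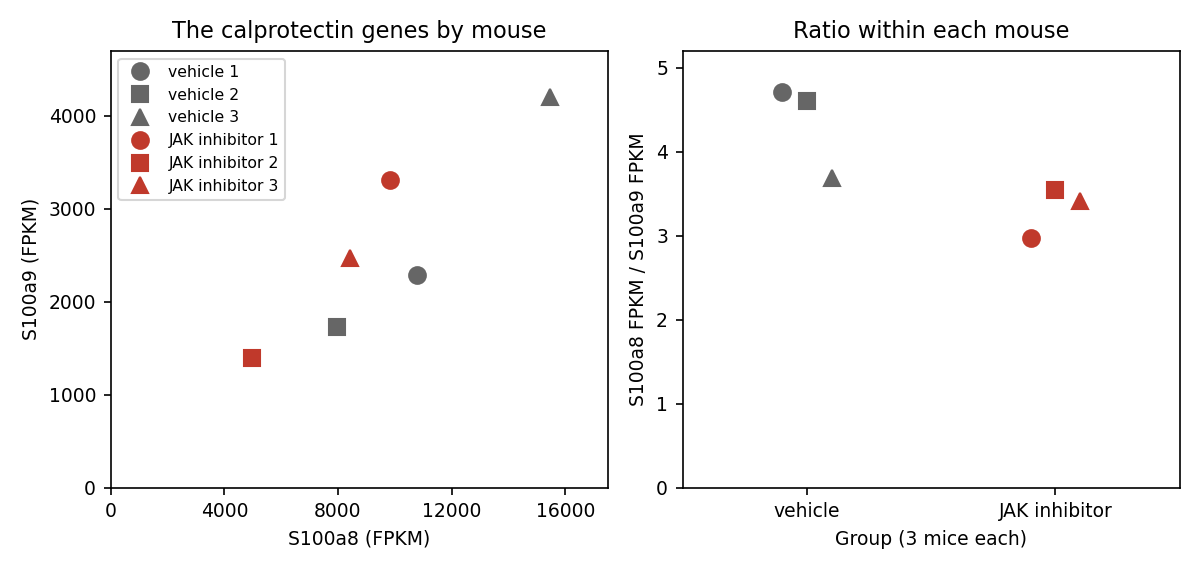
Left, FPKM of *S100a9* against FPKM of *S100a8* in each of the 6 mice. Right, the ratio of *S100a8* to *S100a9* FPKM in each mouse, between 3.69 and 4.71 with vehicle (gray) and between 2.97 and 3.55 with JAK inhibitor (red).

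Of 16 genes of the S100 family, the calprotectin pair included, 10 were tested, of which 7 had a log2 fold change below 0 and 3 above 0. None had an unadjusted p under 0.05 in limma or passed the adjusted threshold, and the median was -0.19, or -0.13 over the 8 without the pair. The median of the family was -0.043 without JAK inhibitor-treated mouse 2, -0.00094 without vehicle-treated mouse 3 and 0.044 without both. Without both, 1 of 9 tested genes, *S100a9*, was higher at an unadjusted p under 0.05, against 12.3% of all tested genes. *S100a5*, named after its values were seen, had -0.63 (limma adjusted p = 0.433), with 1.63, 0 and 0.401 FPKM with vehicle and 0 in every mouse given JAK inhibitor. It passed the filter of 1 FPKM only through vehicle-treated mouse 1, so its place among the tested genes rests on the group where it is high. Among 5 genes for receptors of calprotectin, *Cd14*, the LPS co-receptor, had 104, 67.8 and 132 FPKM with vehicle and 66.2, 41.5 and 58.3 FPKM with JAK inhibitor. Its groups did not overlap (log2 fold change -0.83, limma adjusted p = 0.160), whereas *Bsg*, the most abundant receptor gene, had a log2 fold change of 0.02.

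Genes with the most similar pattern over the 6 mice were found by the root mean square difference of log2(FPKM + 1), each gene centered on its own mean, among the tested genes with a mean FPKM of at least 10. For *S100a8* they were *Il15ra* (0.128), *Snhg9* (0.178), *Cd14* (0.178), *LOC100504703* (0.179) and *Rpph1* (0.181). For *S100a9* they were *Apoc1* (0.196), *Snhg9* (0.216), *Gng11* (0.232), *S100a8* (0.236) and *LOC100504703* (0.259), so that its partner was the fourth nearest of 6033 genes. For *Csf3r* they were *Srsf10* (0.014), *Fkbp3* (0.017), *Cog8* (0.026), *Srsf7* (0.028) and *Rmi1* (0.030), but 576 genes lay within 0.1 of its nearly flat pattern.

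*Trem1* (chromosome 17, 48232768 to 48246924, plus strand) encodes a receptor that amplifies inflammatory signals through the adaptor encoded by *Tyrobp*. Its FPKM was 27.0, 21.4 and 31.5 in vehicle-treated mice 1 to 3 and 17.8, 15.7 and 17.2 in JAK inhibitor-treated mice 1 to 3. All JAK inhibitor-treated mice lay below all vehicle-treated mice and differed little from one another. For *Trem1* the log2 fold change was -0.61 (standard error 0.148, limma adjusted p = 0.118), and the exact permutation test gave p = 0.1, its smallest value. It was -0.56 without JAK inhibitor-treated mouse 2, -0.49 without vehicle-treated mouse 3 and -0.44 without both. The adjusted p was 0.0501 in limma without vehicle-treated mouse 2 and reached 0.320 over the alternatives.

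*Trem3* (48247777 to 48258841, plus strand), a related activating receptor gene, begins 853 bases after the end of *Trem1*. It had 218, 188 and 147 FPKM in vehicle-treated mice 1 to 3 and 225, 158 and 174 FPKM in JAK inhibitor-treated mice 1 to 3. The groups were interleaved and their means were nearly the same, at 184 ± 36.1 and 186 ± 35.0 FPKM (SD, n = 3 each). Accordingly, the log2 fold change was 0.01 (standard error 0.17, 95% confidence interval -0.37 to 0.39, limma adjusted p = 0.981, exact permutation p = 1.0), and it was -0.14 without vehicle-treated mouse 3, 0.12 without JAK inhibitor-treated mouse 2 and -0.036 without both. Of 11 genes of the TREM family and its adaptors, 9 were tested, none passed the adjusted threshold in limma, and 2 were lower at an unadjusted p under 0.05, *Trem1* and *Treml2* (log2 fold change -0.33), against 16.0% of all tested genes, but *Treml2* had no such p without JAK inhibitor-treated mouse 2 (-0.27), vehicle-treated mouse 3 (-0.35) or both (-0.29), while *Tyrobp*, the most abundant, had 0.12.

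*G0s2* (chromosome 1, 193272161 to 193273217, minus strand) encodes an inhibitor of the triglyceride lipase that *Pnpla2* encodes. Its FPKM was 7.89, 10.6 and 3.36 in vehicle-treated mice 1 to 3 and 20.8, 13.8 and 13.7 in JAK inhibitor-treated mice 1 to 3. All JAK inhibitor-treated mice lay above all vehicle-treated mice, with JAK inhibitor-treated mouse 1 the highest and vehicle-treated mouse 3 the lowest. For *G0s2* the log2 fold change was 1.14 (standard error 0.33, limma adjusted p = 0.160, exact permutation p = 0.1, the smallest possible), and it was 1.23 without JAK inhibitor-treated mouse 2, 0.73 without vehicle-treated mouse 3 and 0.82 without both. *G0s2* lies within *Lamb3* on the opposite strand, and *Lamb3* had at most 0.322 FPKM in any mouse. Of the 7 tested genes of triglyceride lipolysis and storage, *G0s2* alone had an unadjusted p under 0.05 in limma, 1 of 7 against 16.0% of all tested genes. None passed the adjusted threshold, and the other 6 had log2 fold changes below 0, with a median of -0.15. *Plin2*, the most abundant of them, had -0.12.

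*Retnlg* (chromosome 16, 48872621 to 48874496, plus strand) encodes a secreted protein of the resistin family. It had 74.1, 29.8 and 13.2 FPKM in vehicle-treated mice 1 to 3 and 49.8, 2.51 and 53.1 FPKM in JAK inhibitor-treated mice 1 to 3. Both groups held high and low mice and overlapped widely, with JAK inhibitor-treated mouse 2 the lowest. Its log2 fold change was -0.59 (standard error 0.99, limma adjusted p = 0.811, exact permutation p = 0.8), and it was 0.71 without JAK inhibitor-treated mouse 2, -1.18 without vehicle-treated mouse 3, 0.03 without vehicle-treated mouse 1 and 0.12 without both outlying mice. The only other tested gene of the resistin family, *Retn*, had 0.203, 0.069 and 1.33 FPKM with vehicle and 0 in every mouse given JAK inhibitor (limma adjusted p = 0.478). It passed the filter of 1 FPKM only through vehicle-treated mouse 3, so its place among the tested genes rests on the group where it is high.

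*Stfa2l1* (chromosome 16, 36156811 to 36161953, plus strand) encodes a protein of the stefin A family, inhibitors of cysteine cathepsins. Its FPKM was 3.30, 4.46 and 17.2 in vehicle-treated mice 1 to 3 and 3.76, 0.362 and 2.25 in JAK inhibitor-treated mice 1 to 3. Vehicle-treated mouse 3 stood far above all others, JAK inhibitor-treated mouse 2 was the lowest, and the groups overlapped at JAK inhibitor-treated mouse 1. The log2 fold change was -1.45 (standard error 0.58, limma adjusted p = 0.272, exact permutation p = 0.2). It was -0.81 without vehicle-treated mouse 3, -0.94 without JAK inhibitor-treated mouse 2 and -0.30 without both. Of its stretches of 75 bases, 7.83% also occur in *Stfa2* or *Gm49652*, and how reads from them were assigned is not known here, so the value is uncertain.

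Other genes of the stefin A cluster and cystatins were compared with it. Of the 9 tested genes besides *Stfa2l1*, none passed the adjusted threshold in limma, 5 were lower and 1 higher with JAK inhibitor at an unadjusted p under 0.05, against 16.0% of all tested genes, and the median log2 fold change was -0.74. Without both outlying mice 2 were lower and 2 higher, against 12.3%, with a median of -0.34. *Gm5483* had 15.8, 6.53 and 12.9 FPKM with vehicle and 5.04, 0.364 and 2.14 FPKM with JAK inhibitor (log2 fold change -2.03, limma adjusted p = 0.122). The other values were -1.69 for *BC100530*, -1.27 for *Stfa1* and -0.74 for *Cstb*, which encodes the widely expressed stefin B, against 0.55 for *Cst3*, the cystatin C gene and the most abundant of the list. JAK inhibitor-treated mouse 2 was the lowest mouse for the first 4 of these genes, as it was for *Stfa2l1*. Without vehicle-treated mouse 3, *Stfa1* had -0.80, *Cstb* -0.45 and *Cst3* 0.37. *Stfa1* and *BC100530* had no unadjusted p under 0.05 in limma without JAK inhibitor-treated mouse 2 or without both outlying mice.

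*Asprv1* (chromosome 6, 86628164 to 86629710, plus strand) encodes an aspartic protease first known from skin. It had 4.53, 1.33 and 4.05 FPKM in vehicle-treated mice 1 to 3 and 1.45, 0.018 and 0.593 FPKM in JAK inhibitor-treated mice 1 to 3. The groups overlapped only where JAK inhibitor-treated mouse 1 lay just above vehicle-treated mouse 2. The log2 fold change was -1.35 (standard error 0.40, limma adjusted p = 0.169, exact permutation p = 0.2) and -2.59 with a pseudocount of 0.1, since 1 FPKM is of the order of the level itself. It was -1.03 without JAK inhibitor-treated mouse 2, -1.18 without vehicle-treated mouse 3 and -0.86 without both.

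The 9 genes were set beside 20 other genes known from mature neutrophils, of which 18 were tested. At an unadjusted p under 0.05, 11 were lower and 1 was higher with JAK inhibitor, against 16.0% of all tested genes, 1 of them passed the adjusted threshold in limma, against 0.133%, and the median log2 fold change was -0.69. Without both outlying mice 9 were lower and 2 higher, against 12.3%, with a median of -0.35. The number of the 18 that passed the adjusted threshold was 0 without JAK inhibitor-treated mouse 2, 5 without vehicle-treated mouse 3 and 3 without both. Over all tested genes, 6 of 11239, 94 of 11130 and 58 of 11050 passed in these settings. *Il1f9*, an IL-1 family cytokine gene, fell, with 15.03, 13.8 and 16.0 FPKM with vehicle and 5.45, 7.42 and 6.42 FPKM with JAK inhibitor (log2 fold change -1.11, limma adjusted p = 0.0324), but its call was lost under 7 of 16 alternatives, with adjusted p from 0.0158 to 0.197. *Wfdc21*, the most abundant gene of this list, had 1422, 1112 and 1971 FPKM with vehicle and 727, 397 and 565 FPKM with JAK inhibitor (log2 fold change -1.42, limma adjusted p = 0.0781). *Cd177*, a neutrophil surface protein gene, was the higher one (0.74), and *Fpr2* (-1.24) and *Mmp8* (-1.06) were among the lower ones. The summed FPKM of this list was 3933, 3284 and 5592 in vehicle-treated mice 1 to 3 and 2668, 2071 and 2597 in JAK inhibitor-treated mice 1 to 3, so that all JAK inhibitor-treated mice were lower. The sum of the 9 genes, 13470.0, 10003 and 19927 against 13500.2, 6618 and 11216, is almost entirely the calprotectin pair, and the other 7 genes summed to 387, 308 and 260 FPKM with vehicle and 374, 247 and 318 FPKM with JAK inhibitor.

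The lists of granule genes held genes of both directions. *Ms4a3* encodes a membrane protein, so the primary granule list is not confined to genes of granule contents. Its remaining tested gene besides those named next, *Ctsg*, had a log2 fold change of -0.05. Of 6 tested genes of this list, *Elane* (log2 fold change 1.12), *Mpo* (0.93) and *Prtn3* (0.47) were higher and *Ms4a3* (-0.39) and *Rnase2a* (-0.78) lower at an unadjusted p under 0.05. This makes 3 higher and 2 lower of 6, against 16.0% of all tested genes, and none passed the adjusted threshold in limma. Without both outlying mice, *Elane* had 0.70, *Mpo* 0.45 and *Prtn3* 0.28, and *Elane* passed the adjusted threshold (limma adjusted p = 0.00910), 1 of 6 against 58 of 11050 tested genes. *Rnase2a* had no unadjusted p under 0.05 without JAK inhibitor-treated mouse 2 (-0.64). *Bpi* was listed at 0 in every mouse, and the summed FPKM was 9078, 9888 and 5399 with vehicle and 12619, 13273 and 12311 with JAK inhibitor. Of 9 tested secondary granule genes, *Chil3*, a chitinase-like protein gene, fell from a mean FPKM of 9898 to 3809 (log2 fold change -1.39, limma adjusted p = 0.0189), with the call lost under 4 of 16 alternatives and adjusted p from 0.00166 to 0.216. *Lcn2* (-1.66) and *Hp* (-0.84) were lower and *Camp* (1.64) higher at an unadjusted p under 0.05. With *Chil3* this makes 3 lower and 1 higher of 9, against 16.0% of all tested genes. *Ltf* had 0.63 and *Ngp* 0.58 with groups that overlapped, and the median of the list was -0.12. Values of this list moved with the outlying mice. Without JAK inhibitor-treated mouse 2, *Ltf* had 1.25 and *Ngp* 0.998, whereas *Ltf* had 0.16 without vehicle-treated mouse 3. *Camp* and *Ngp* passed the adjusted threshold beside *Chil3* without JAK inhibitor-treated mouse 2, which makes 3 of 9, against 6 of 11239 tested genes. Without vehicle-treated mouse 3, *Chil3* and *Lcn2* passed, 2 of 9 against 94 of 11130. Without both, *Camp*, *Chil3*, *Ngp* and *Lcn2* passed, 4 of 9 against 58 of 11050. At an unadjusted p under 0.05, 3 were lower and 3 higher without both, against 12.3% of all tested genes, with a median of -0.031. The summed FPKM of the list, 15492, 13131 and 17525.5 with vehicle and 8639, 5969.5 and 8881 with JAK inhibitor, mostly reflects *Chil3* and *Hp* (mean FPKM 3346 with vehicle and 1829 with JAK inhibitor), since *Camp* had means of 245 and 797. Of 12 tested genes of monocytes and osteoclast precursors, 4 were lower and 1 higher at an unadjusted p under 0.05 (median -0.01), and of 9 tested macrophage genes, 4 were lower and none higher (median -0.70), against 16.0% of all tested genes. Without both outlying mice these counts were 3 and 1 of 12 (median 0.0016) and 5 and 1 of 9 (median -0.89), against 12.3%. Whether the share of any of these cell types moved the values of the 9 genes was not tested.

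**Figure D4:**
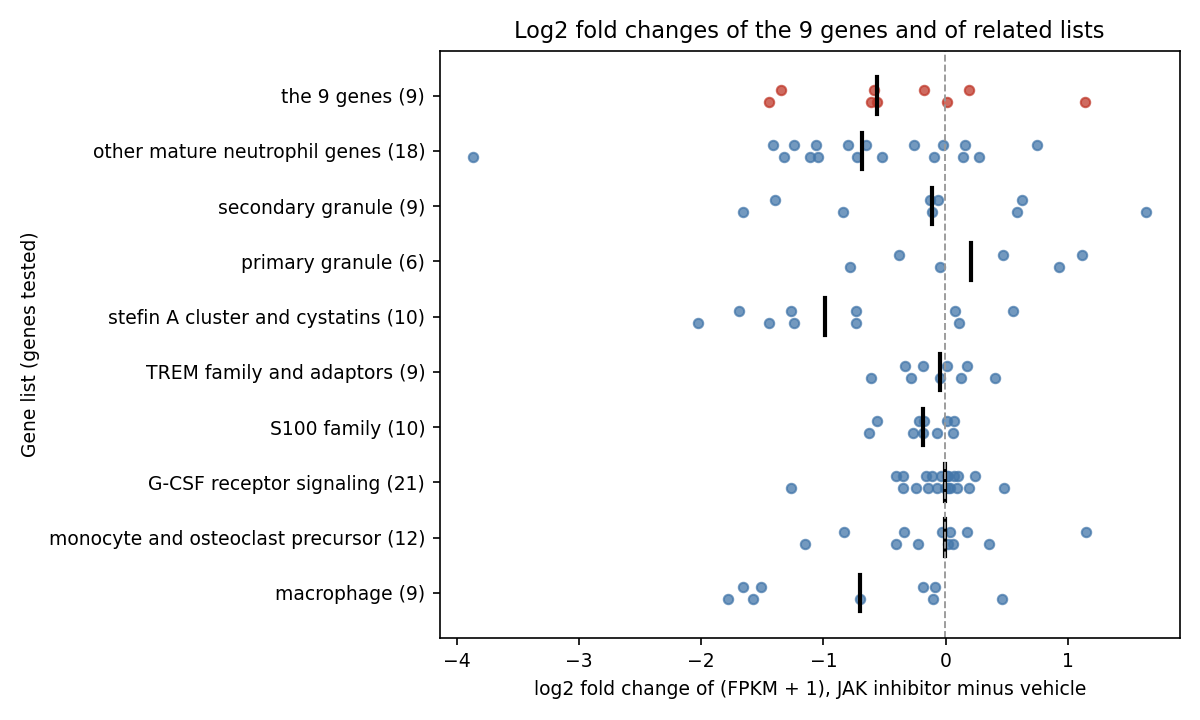
Log2 fold change of FPKM + 1, JAK inhibitor minus vehicle, for each tested gene (points) of the 9 genes and of 9 related lists, with the number of tested genes in brackets, the list median (black bar) and the median of all tested genes (dashed line). The 9 genes range from -1.45 to 1.14, with a median of -0.56.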

How the data were processed

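RNA-Seq of 3 JAK inhibitor-treated and 3 vehicle-treated mice was used. For each mouse, the authors deposited a table of FPKM. The submitters' processing notes name TopHat2 2.0.13, Bowtie2 2.2.3, SAMtools 0.1.19, Cufflinks 2.2.1 and the mm10 build. The study's methods name a stranded mRNA kit and the labels a full-length cDNA kit, so the use of strand is uncertain. Read counts were not used here.

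From the deposited FPKM, log2(FPKM + 1) was compared between groups with limma 3.58.1 in R 4.3.3 (trended empirical Bayes, p adjusted by Benjamini-Hochberg). Genes had to reach 1 FPKM in at least 1 mouse. Fold changes on this scale understate the change of low genes. Single genes, and the log2 ratio of *S100a9* to *S100a8* without a pseudocount, had an exact 2-sided permutation test. The model was also run on simulated data, from which no result is used here. The members and gene lists were chosen with earlier results of these data known. Lists are described by counts and medians, without a test. Genes named are the 9 members, the gene with the highest mean FPKM and up to 5 with the smallest unadjusted p under 0.05 in each list, and the 5 nearest in pattern to *Csf3r*, *S100a8* and *S100a9*. *Cxcr1*, *Cxcr2*, *Csf3*, *Bpi*, *Retn*, *Lamb3*, *Slpi*, *Ifitm6*, *Fpr1*, *Ltf*, *Ngp*, *S100a5* and genes noted as listed at 0 or not analysed were named for their function, position or level, outside this rule, after their values were seen. Relative depth was estimated from the most frequent ratio of low values between libraries and is rough.

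Alternatives were a pseudocount of 0.1, other filters, quantile, median ratio and sum scaling, no trend, weights per library, leaving out single mice and a block for the replicate number. Leaving out both outlying mice was added after the data were seen. Positions are from GENCODE M21 (GRCm38, the sequence of mm10), and promoters from RefSeq (GRCm38.p6). SciPy 1.17.1, NumPy 2.4.6, pandas 2.3.3 and matplotlib 3.10.9 were run in Python 3.11.15.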

Additional observations from a re-analysis of the deposited data

How the results depend on the processing

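None of the 9 genes passed the adjusted threshold of limma under any of the 16 alternatives. *Csf3r* and *G0s2* stayed higher and *S100a8*, *Asprv1*, *Stfa2l1* and *Trem1* lower with JAK inhibitor in all 16, and the *S100a9* to *S100a8* ratio stayed higher in its 9 alternatives. With 1 mouse left out, the log2 fold change ranged from -0.46 to 0.18 for *S100a9*, from -1.26 to 0.71 for *Retnlg* and from -0.14 to 0.14 for *Trem3*, and the median of the 9 genes from -0.65 to 0.12. *Trem3* was also at -0.10 with weights per library. Without both JAK inhibitor-treated mouse 2 and vehicle-treated mouse 3, an alternative chosen after seeing the values of these genes, the values were 0.52 for *S100a9*, 0.12 for *Retnlg*, -0.036 for *Trem3* and -0.027 for the median, and 58 genes were called. The causes were not tested. The 15 genes called in all became 2 without a filter, 34 with an FPKM of at least 1 in 3 mice, 2 without the trend, 63 with weights per library and between 3 and 95 with 1 mouse left out. These counts were 5, 6 and 3 without JAK inhibitor-treated mice 1, 2 and 3, and 95 and 94 without vehicle-treated mice 2 and 3. With the replicate block 67 genes were called, but no pairing of the numbered mice is named in the sources used here. The deviations of same-numbered mice from their group means had correlations across genes of 0.016, 0.054 and -0.00016, and not every mouse correlated best with its own number. With 3 mice per group, these values cannot tell whether the numbers pair the mice. Under this block the smallest limma adjusted p among the 9 genes were 0.0708 for *Asprv1*, 0.0976 for *Trem1*, 0.106 for *G0s2* and 0.123 for *S100a8*. The block leaves a difference of group means as it is by construction, and the exact permutation p of the calprotectin ratio was 0.25 with it, the smallest that 3 pairs allow, against 0.1 without. Since the absolute depth is unknown, the counting error of low genes such as *Asprv1* and *Stfa2l1* cannot be given.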

Other observations

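Genes of other cell types that a sort of marrow cells could hold were read in the same libraries. Of 8 genes of endothelial and bone-forming cells, none reached an FPKM of 1, and *Bglap*, the highest, had a mean of 0.190. Of 8 B cell genes, *Ms4a1*, *Pax5* and *Ebf1* were listed at 0 in every mouse, and of the 2 tested none had an unadjusted p under 0.05 in limma, with *Cd79b* the most abundant (mean FPKM 30.1). Of 6 tested T and NK cell genes, 4 had a log2 fold change below 0 and 2 above 0. *Nkg7* (mean FPKM 401) made up nearly all of the summed FPKM of this list. That sum was 342, 373 and 204 with vehicle and 572, 503 and 490 with JAK inhibitor (mice 1 to 3). At an unadjusted p under 0.05, *Nkg7* (log2 fold change 0.92) was higher and *Gzma* (-2.09) lower with JAK inhibitor, 2 of 6 against 16.0% of all tested genes. The same share stands beside the counts over all 6 mice for the lists that follow. *Nkg7* had 0.57 without vehicle-treated mouse 3 (limma adjusted p = 0.0278) and 0.60 without both outlying mice (0.0432), and *Gzma*, whose groups overlapped, had no unadjusted p under 0.05 without either mouse. None of the 6 tested dendritic cell genes had such a p, but 2 were lower without vehicle-treated mouse 3, against 13.5% of all tested genes. Without both outlying mice 2 were lower, against 12.3%. *Bst2* was the most abundant dendritic cell gene (mean FPKM 51.5). In the list of eosinophils, basophils and mast cells, *Mcpt8*, a basophil protease gene (mean FPKM 821), and *Epx* were higher among 7 tested genes, with log2 fold changes of 0.60 and 0.99 and groups that overlapped. *Mcpt8* had no unadjusted p under 0.05 without JAK inhibitor-treated mouse 2 (0.48) or vehicle-treated mouse 3 (0.36), and neither gene had such a p without both. *Pf4* was lower (-1.82, groups that overlapped) among 2 tested megakaryocyte genes, and *Itga2b*, the other, had -0.51 with no unadjusted p under 0.05. Without JAK inhibitor-treated mouse 2 both were lower at such a p (-1.56 and -0.76), 2 of 2 against 12.2% of all tested genes. This also held without both outlying mice (-2.00 and -0.81), against 12.3%, but without vehicle-treated mouse 3 for *Pf4* alone. The erythroid genes *Klf1* (1.25) and *Hba-a1* (2.86) were higher at an unadjusted p under 0.05, 2 of 4 tested against 16.0% of all tested genes. *Hba-a1* had 0.064, 0 and 0.057 FPKM in vehicle-treated mice 1 to 3 and 2.64, 1.96 and 38.6 FPKM in JAK inhibitor-treated mice 1 to 3. It passed the filter of 1 FPKM only through the JAK inhibitor-treated mice, so its place among the tested genes rests on the group where it is high. Over all 6 mice, none of these genes passed the adjusted threshold of limma. Among all tested genes, 94 of 11130 passed it without vehicle-treated mouse 3 and 58 of 11050 without both outlying mice.

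Monocyte and macrophage genes beyond the counts above included *Fcgr1* (log2 fold change -1.15), *Cd14* (-0.83), *Itgam* (-0.34) and *Ms4a6c* (-0.22), which were lower, and *Nr4a1* (1.14), which was higher at an unadjusted p under 0.05 in limma. The groups overlapped for *Itgam* and *Nr4a1*, and *Itgam* had -0.18 without vehicle-treated mouse 3, with no unadjusted p under 0.05. The complement genes *C1qa* (-1.66), *C1qb* (-1.78) and *C1qc* (-1.51) and the phagocytic receptor gene *Mertk* (-1.57) were lower at an unadjusted p under 0.05, with groups that overlapped for *C1qa* and *C1qc*, while *Cd68*, the most abundant macrophage gene, had -0.08. Over all 6 mice, none of the genes in this paragraph passed the adjusted threshold of limma, with adjusted p of 0.122, 0.0721, 0.154 and 0.158 for *C1qa*, *C1qb*, *C1qc* and *Mertk*. Without vehicle-treated mouse 3, *C1qa* (-2.08, limma adjusted p = 0.0240) and *C1qb* (-2.07, 0.00909) passed, against 94 of 11130 tested genes. *C1qb* also passed without both outlying mice (0.0199), against 58 of 11050, and *Mertk* had -0.999 without vehicle-treated mouse 3.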
